A study of Mus musculus with 12 samples.

Results

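The matrix metalloproteinases (Mmp genes), the ADAM and ADAMTS proteases (Adam and Adamts genes) and their tissue inhibitors (Timp genes) were followed in mouse dorsal root ganglia (DRG) after sciatic nerve crush and after gavage with indole-3-propionic acid (IPA), a tryptophan metabolite made by gut bacteria. Members were all genes whose symbol is Mmp, Adam, Adamts or Timp followed by a number and at most 1 letter. They came to 79 of the 44345 genes listed, made up of 23 Mmp, 33 Adam, 19 Adamts and 4 Timp genes.

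Matrix metalloproteinases are zinc enzymes that are made as inactive precursors and cut collagens, other matrix proteins and cell surface proteins once activated. Most are secreted, while the membrane-type enzymes stay tethered to the cell. ADAMs are membrane proteins with a disintegrin and a metalloproteinase domain, and the active ones release the outer part of receptors, adhesion proteins and growth factor precursors, a step called shedding. Several ADAMs have lost the catalytic residues and act as binding proteins instead, and ADAM22 and ADAM23 are neuronal receptors for secreted LGI proteins. ADAMTS enzymes are secreted and include the aggrecanases, which cut the proteoglycans of the lectican family, and the procollagen N-proteinases, which trim new fibrillar collagen. TIMPs bind and block the active site of these enzymes. The DRG houses the cell bodies of sensory neurons, and after an axon is crushed these neurons change their gene expression while macrophages accumulate around them.

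All groups were C57BL/6 mice aged 6 to 8 weeks, and each library held RNA of sciatic (L4-L6) DRG pooled over 2 mice. Injured IPA mice received IPA in PBS at 20 mg/kg by daily gavage for 10 days, then a sciatic nerve crush, and IPA for 3 days more. Injured vehicle mice received PBS by gavage for 10 days and the same crush, with DRG likewise taken after 3 days; whether their gavage went on after the crush is not clear from the labels. Uninjured IPA mice and uninjured vehicle mice received the same IPA dose or PBS for 10 days with no crush. Each of the 4 groups had 3 libraries. Injury under IPA is joined with 3 further days of dosing, and the 2 cannot be told apart. The same 3 days enter IPA after injury and the difference between the injury effects. If vehicle gavage stopped at the crush, gavage itself differed in those comparisons as well.

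Libraries held 40938034 to 62501969 reads assigned to genes. The deposited values are called CPM here, since each is the reads of a gene times 1 factor for its library. They summed to 803444 to 818767 per library, so the scaling was not to the assigned reads alone, and its total is not known. All 12 markers listed for sensory neurons were detected, and their summed level was 12469 to 14397 CPM over the 12 libraries. Summed macrophage markers (11 of 12 in the table) were 143 to 169 CPM in injured IPA and 147 to 164 CPM in injured vehicle libraries, against 40.7 to 60.0 CPM in uninjured IPA and 42.6 to 53.6 CPM in uninjured vehicle libraries. In a bulk sample, fewer cells of a type and less RNA per cell cannot be told apart. Injured vehicle replicate 1 stood apart from the other 2 libraries of its group (chi-square of the reads over degrees of freedom of 28.3 and 25.9, against 5.70 between the other pair and 4.80 to 24.1 within the other groups), and each call below that is lost without it is named.

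A gene was tested if at least 3 of the 12 libraries reached 0.5 CPM, which kept 15603 genes and 49 members. Per kilobase of its longest annotated transcript, Timp2 had the highest mean level of all members over the 12 libraries, at 257 CPM per kilobase. Adam23 (63.2), Adam11 (46.96), Mmp15 (30.2), Adam9 (27.6) and Adam15 (24.5) followed on the same scale. Timp3 (24.4), Adam10 (22.7), Adam22 (19.9), Mmp25 (18.1), Adam19 (15.8) and Adam8 (12.5) completed the 12 highest. The order was not the same in every group. Adam8 stood 9th among members in injured vehicle libraries at 23.96 CPM per kilobase, and was outside the 20 highest in uninjured vehicle libraries at 1.43 CPM per kilobase.

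The other 30 members did not reach 0.5 CPM in 3 libraries. Of these, 6 had no read in any library (Adam20, Adam26a, Adam34, Adam6a, Mmp1b and Mmp20), 11 had 1 to 10 reads over all libraries and 13 had more. The highest of the 30 by group mean were Adamts18, at most 0.534 CPM in a group, Adamts19, at most 0.343, and Mmp13, a collagenase, at most 0.279. Most Mmp genes of this kind sit together: 10 members lie side by side on chromosome 9 between 7272514 and 7699585 (GRCm38), and of these Mmp8 alone was tested. Mmp13, the second most abundant of the 10 by reads, had 161 reads over all 12 libraries, Mmp12 had 43 and Mmp3 had 23. The chromosome 8 groups Adam24, Adam25, Adam20 and Adam39, and Adam26b, Adam26a and Adam34, had no tested member either.

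Several secreted Mmp genes are textbook targets of AP-1, the Fos and Jun transcription factor pair, whose core binding letters are TGANTCA on either strand. RefSeq promoter windows of 300 bases (250 before to 50 after the start, GRCm38.p6) were matched for 49 of the 79 members, as 54 windows. The letters occurred in 7.81% of all 32851 windows of the table and in 24.1% of the member windows. Of the 22 windows of members below the filter, 54.5% held them, against 1 of 10 windows of members that were higher after injury under vehicle (Adam19) and 0 of 9 windows of members that were lower. Those 10 windows belong to 8 of the 14 higher members, and the 9 windows to 8 of the 14 lower ones. The higher members Mmp16, Mmp19, Mmp2, Adamts4, Adamts8 and Adamts16 had no window and were not searched. On chromosome 9, 8 of the 10 neighbours held the letters, 35 to 95 bases before the start, and none of those 8 reached the filter. A match is a description of letters, not a site or a cause. The stretches are shown because these 8 neighbours share the letters and none passed the filter; capitals mark the matched letters, with 12 bases on each side, 5′ to 3′ along each gene's own strand.
Mmp13 (chr9:7272467-7272497, plus strand): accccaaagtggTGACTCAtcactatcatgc
Mmp12 (chr9:7347318-7347348, plus strand): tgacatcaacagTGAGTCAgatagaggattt
Mmp1b (chr9:7388101-7388131, minus strand): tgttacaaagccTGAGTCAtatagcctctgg
Mmp3 (chr9:7445764-7445794, plus strand): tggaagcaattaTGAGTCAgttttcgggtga
Mmp1a (chr9:7464056-7464086, plus strand): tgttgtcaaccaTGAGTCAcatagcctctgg
Mmp10 (chr9:7502267-7502297, plus strand): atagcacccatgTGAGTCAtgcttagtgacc
Mmp20 (chr9:7628124-7628154, plus strand): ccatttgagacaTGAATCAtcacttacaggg
Mmp7 (chr9:7692015-7692045, plus strand): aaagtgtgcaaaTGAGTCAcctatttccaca

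Nerve injury changed a few members by a large factor and many by a small one. Under vehicle, 14 members were higher and 14 lower after crush, while 21 of the 49 did not pass (limma, Benjamini-Hochberg adjusted p under 0.05). Called members were 57.1% of those tested, against 48.0% of all genes tested, so the members' share was close to the background. Higher calls made up 23.6% and lower calls 24.4% of all genes. Under IPA, 14 members were higher and 11 lower, which is 51.0% against 43.6% of all genes (21.2% higher and 22.5% lower). The median log2 change of the tested members was -0.03 in both comparisons, and that of all genes was 0.00 under vehicle and -0.02 under IPA. By fitted change, which the 0.5 CPM added before the log shrinks, the 3 members over 2-fold in both were Adam8, Timp1 and Mmp16, which is 6.12% of the tested members, against 4.06% of all genes under vehicle and 3.45% under IPA. By the ratio of group means Mmp19 was over 2-fold as well, at 2.27 under vehicle and 2.15 under IPA. Values of injured and uninjured libraries did not overlap for 57.1% of members under vehicle (51.4% of all genes) and 63.3% under IPA (58.0% of all genes).

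The same members were called under both gavages with few exceptions. All 14 higher calls were shared. The 11 lower calls under IPA were all among the 14 under vehicle, and Adam7, Adamts5 and Adamts6 passed under vehicle alone. Shared calls were not counted over all genes, of which 48.0% were called under vehicle and 43.6% under IPA. The sharing is thus not a result particular to the members. No member was called in opposite directions, and the difference between the 2 injury effects was called for no member with limma. Adam7 was tested only because uninjured vehicle libraries reached the filter, so its lower value in the other groups follows in part from how genes were kept. Adam7, an ADAM known from the epididymis, had log2 changes of -0.37 ± 0.12 under vehicle and -0.29 ± 0.12 under IPA. The vehicle call was lost without injured vehicle replicate 2 (limma adjusted p = 0.0566) or 3 (0.0576). Leaving out any uninjured vehicle library, or a higher filter, left Adam7 untested. Over the 18 alternatives that tested it, the limma, edgeR or DESeq2 adjusted p was 0.00147 to 0.0576. Adamts6 had log2 changes of -0.36 ± 0.13 and -0.29 ± 0.13. Its vehicle call was lost without injured vehicle replicate 1 (-0.24, limma adjusted p = 0.129) or uninjured vehicle replicate 1 (-0.37, adjusted p = 0.0679), 2 (-0.38, adjusted p = 0.0631) or 3 (-0.35, adjusted p = 0.0717), with DESeq2 (0.0765) and with only the groups compared (0.0589). The range over the 21 alternatives that tested Adamts6 was 0.00844 to 0.129.

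**Figure D1:**
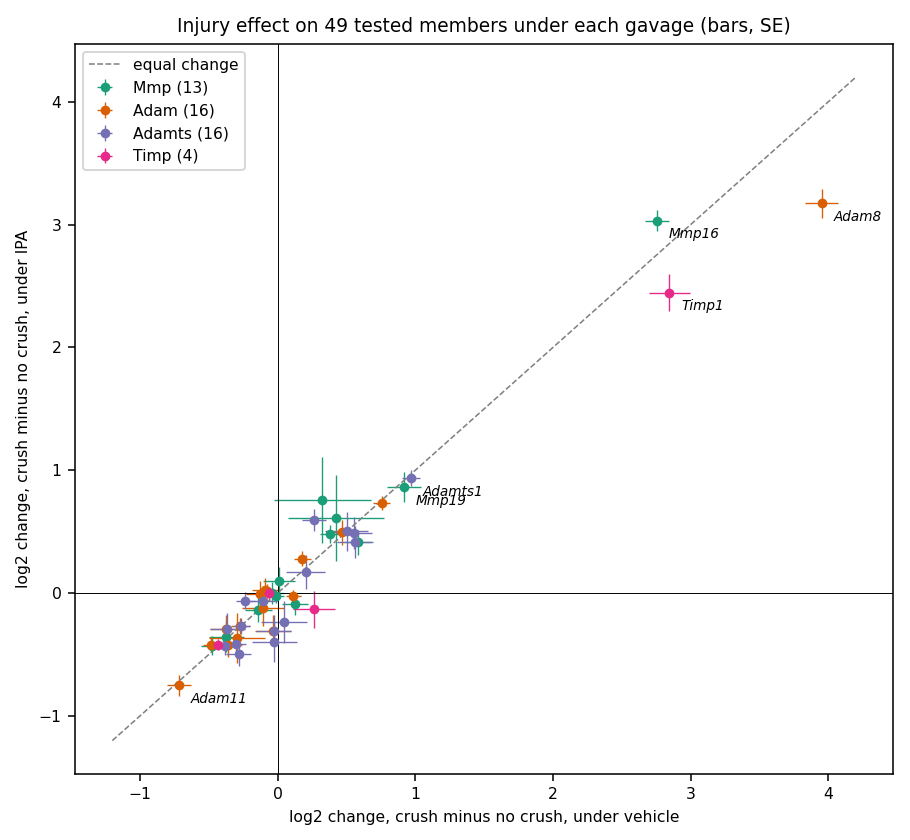
Log2 change after crush (injured minus uninjured) of the 49 tested members, under vehicle on the x axis and under IPA on the y axis, coloured by gene family, with bars for the SE from limma. Adam8, Timp1 and Mmp16 lie apart at 2.45 to 3.95 on both axes, while every other member lies below 1 on both axes.

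Among membrane-type metalloproteinases, Mmp16 rose, Mmp25 rose by less and Mmp15 fell. Mmp16 (MT3-MMP; ENSMUSG00000028226, chromosome 4, 17852893 to 18119145, plus strand) is a transmembrane enzyme known from brain tissue. Mmp16 read 42.3, 43.1 and 42.7 CPM in injured IPA libraries, against 5.12, 4.47 and 4.797 CPM in uninjured IPA libraries. Under vehicle, Mmp16 read 53.3, 45.8 and 50.5 CPM in injured libraries, against 6.82, 7.93 and 6.19 CPM in uninjured libraries. No injured library came near an uninjured one. The log2 change was 2.76 ± 0.08 (SE) under vehicle (limma adjusted p = 1.27e-11) and 3.03 ± 0.08 under IPA (limma adjusted p = 5.50e-12), and group means differed by 7.14 and 8.91 times.

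Mmp25 (MT6-MMP), which is held to the membrane by a lipid anchor, averaged 99.3 ± 8.74 CPM in injured IPA and 70.9 ± 3.64 CPM in uninjured IPA libraries (SD, n = 3 each). Under vehicle, Mmp25 averaged 89.03 ± 7.62 CPM in injured and 68.3 ± 2.62 CPM in uninjured libraries. It rose by 0.38 and 0.48 on the log2 scale under vehicle and IPA. Mmp15 (MT2-MMP) went the other way in every library. Mmp15 read 145, 142 and 121 CPM in injured IPA libraries, against 178, 188 and 182 CPM in uninjured IPA libraries. Under vehicle, Mmp15 read 115, 132 and 131 CPM in injured libraries, against 172, 163 and 192 CPM in uninjured libraries. On the log2 scale it changed by -0.48 ± 0.08 with vehicle and -0.43 ± 0.08 with IPA (limma adjusted p = 0.000158 and 0.000466). Mmp14 (MT1-MMP), which activates the precursor of Mmp2, did not pass, with 95% intervals of -0.07 to 0.33 under vehicle and -0.29 to 0.11 under IPA on the log2 scale. Mmp24 (MT5-MMP), known from neurons, did not pass either, and its intervals were -0.13 to 0.11 and -0.15 to 0.09. Mmp17 (MT4-MMP) had intervals of -0.35 to 0.07 and -0.35 to 0.07.

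Of the gelatinases, which cut denatured collagen and basement membrane collagen, Mmp2 rose and Mmp9 did not pass. Mmp2 read 20.4, 21.8 and 22.6 CPM in injured IPA libraries, against 17.00, 18.1 and 13.5 CPM in uninjured IPA libraries. Under vehicle, Mmp2 read 22.5, 23.9 and 25.8 CPM in injured libraries, against 14.4, 16.2 and 17.2 CPM in uninjured libraries. Injured values lay above all uninjured values under each gavage. The log2 change of Mmp2 was 0.58 ± 0.10 with vehicle and 0.41 ± 0.10 with IPA (limma adjusted p = 0.000263 and 0.00384). Summed markers of fibroblasts and meninges, cells that express Mmp2, were 965 to 1051 CPM in injured IPA libraries, against 873 to 1147 CPM in uninjured IPA libraries, and 1059 to 1215 CPM in injured vehicle libraries, against 860.2 to 1060.4 CPM in uninjured vehicle libraries. Of their 12 markers, 5 were higher and 0 lower under vehicle and 2 higher and 2 lower under IPA, and their part in the Mmp2 result was not tested. Shares over all genes were 23.6% higher and 24.4% lower under vehicle, and 21.2% higher and 22.5% lower under IPA.

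Mmp9 and Mmp8, stored in neutrophil granules, varied widely between libraries of a group. Mmp9 read 4.303, 2.68 and 6.25 CPM in injured IPA libraries, against 1.92, 3.56 and 2.42 CPM in uninjured IPA libraries. Under vehicle, Mmp9 read 2.71, 5.74 and 3.81 CPM in injured libraries, against 2.97, 1.44 and 4.78 CPM in uninjured libraries. Mmp8 read 2.28, 1.09 and 3.91 CPM in injured IPA libraries and 0.725, 1.39 and 1.25 CPM in uninjured IPA libraries. Under vehicle, Mmp8 read 1.69, 2.705 and 1.73 CPM in injured and 1.77, 0.702 and 2.42 CPM in uninjured libraries. Injured and uninjured values overlapped for both genes, and neither passed (limma adjusted p = 0.339 and 0.175 for Mmp9, 0.470 and 0.0975 for Mmp8, under vehicle and IPA). Both were highest in injured IPA replicate 3, where the 12 neutrophil markers, a list without these genes, also had their highest sum (163 CPM). Across groups that sum was 40.4 to 163 CPM in injured IPA and 48.0 to 88.5 CPM in injured vehicle libraries, against 22.9 to 43.6 CPM in uninjured IPA and 18.1 to 63.8 CPM in uninjured vehicle libraries. Among uninjured vehicle libraries, replicate 3 was highest and replicate 2 lowest for Mmp8, Mmp9 and the marker sum alike. The part of neutrophil numbers in these values was not tested.

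Mmp19, a secreted enzyme that cuts basement membrane proteins, rose. Mmp19 read 2.65, 2.64 and 2.33 CPM in injured IPA libraries, against 1.12, 1.39 and 1.02 CPM in uninjured IPA libraries. Under vehicle, Mmp19 read 2.23, 2.81 and 3.21 CPM in injured libraries, against 1.098, 1.29 and 1.24 CPM in uninjured libraries. All injured values exceeded 2 CPM and no uninjured value reached 1.5 CPM. It changed in log2 units by 0.92 ± 0.12 with vehicle and 0.86 ± 0.12 with IPA (limma adjusted p = 3.14e-05 and 6.57e-05). Its exons overlap those of Tmem198b on the opposite strand, which read 4.754 to 6.9998 CPM over the injured and 5.63 to 7.10 CPM over the uninjured libraries. Mmp23 averaged 1.496 CPM in injured IPA and 2.06 CPM in uninjured IPA libraries, and 1.34 CPM in injured vehicle and 1.86 CPM in uninjured vehicle libraries. Its log2 change was -0.37 ± 0.13 with vehicle and -0.36 ± 0.13 with IPA (limma adjusted p = 0.0248 and 0.0337). The call was lost under vehicle without injured vehicle replicate 1 (limma adjusted p = 0.0985) or without uninjured vehicle replicate 1 (0.0885) or 3 (0.0609), and under IPA without injured IPA replicate 1 (0.119) or 3 (0.0579) or uninjured IPA replicate 1 (0.0502) or 2 (0.139). It was also lost with no filter (0.0762 under vehicle and 0.0992 under IPA) and, under vehicle, with only the groups compared (0.0560). Over all alternatives the limma, edgeR or DESeq2 adjusted p was 0.00379 to 0.0985 under vehicle and 0.0109 to 0.139 under IPA. Mmp11 and Mmp28 did not pass under either gavage.

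The largest change of any member was in Adam8, a shedding protease known from macrophages, granulocytes and other immune cells (ENSMUSG00000025473, chromosome 7, 139978932 to 139992562, minus strand). Adam8 read 80.3, 78.3 and 87.8 CPM in injured IPA libraries, against 8.16, 9.33 and 8.48 CPM in uninjured IPA libraries. Under vehicle, Adam8 read 75.6, 95.96 and 92.2 CPM in injured libraries, against 5.45, 6.16 and 4.14 CPM in uninjured libraries. Every injured library was above 75 CPM, and every uninjured one below 10 CPM. The log2 change was 3.95 ± 0.12 under vehicle (limma adjusted p = 9.40e-12) and 3.17 ± 0.12 under IPA (limma adjusted p = 9.18e-11), and group means differed by 16.7 and 9.49 times. All 11 tested macrophage markers were also higher in both comparisons (23.6% and 21.2% of all genes were). Their median log2 changes were 1.52 under vehicle and 1.45 under IPA, and their part in the Adam8 result was not tested. Gm16201, whose exons overlap those of Adam8 on the opposite strand, read 0.508 to 1.13 CPM over the 12 libraries. It was called lower after crush under vehicle (log2 change -0.33, limma adjusted p = 0.0384) and did not pass under IPA (limma adjusted p = 0.470). The RefSeq window of Adam8 (chr7:139992513-139992812, minus strand, GRCm38.p6) is shown because Adam8 had the largest change of any member. The window holds no TGANTCA, which says only that these letters are not in this window.
Adam8: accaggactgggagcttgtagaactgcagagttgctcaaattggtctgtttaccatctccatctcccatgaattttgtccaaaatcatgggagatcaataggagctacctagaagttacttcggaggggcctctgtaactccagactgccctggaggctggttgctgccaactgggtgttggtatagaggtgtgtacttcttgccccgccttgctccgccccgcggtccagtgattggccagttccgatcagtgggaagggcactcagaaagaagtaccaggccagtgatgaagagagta

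The 16 tested ADAMs were split by whether a coding transcript in GENCODE M21 holds the zinc-binding motif of the metzincin proteases (histidine, glutamate, any 2 residues, histidine, any 2, glycine, any 2, histidine). Of the 10 with the motif, 4 were higher and 0 lower under both gavages, with median log2 changes of 0.04 under vehicle and 0.02 under IPA. Of the 6 without it, 0 were higher and 5 were lower under vehicle and 4 under IPA, with medians of -0.37 and -0.36. The shares over all genes were 23.6% higher and 24.4% lower under vehicle, and 21.2% higher and 22.5% lower under IPA. Among the lower calls under vehicle is Adam7, which was kept only through the group where it was high and so gives no support. The groups are small, and their difference was not tested.

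**Figure D2:**
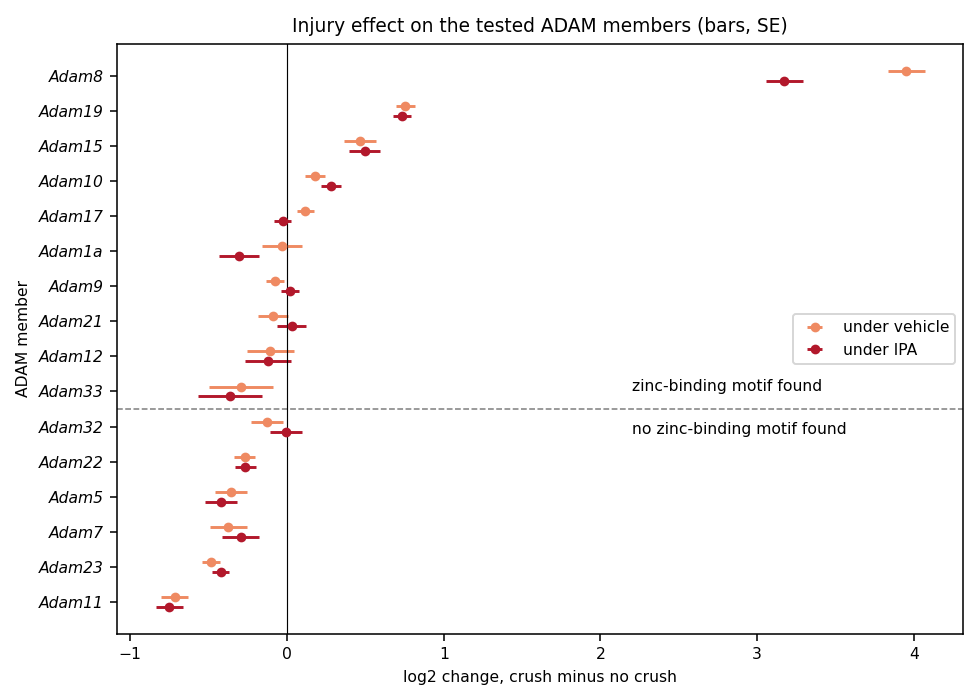
Log2 change after crush (injured minus uninjured, x axis) of the 16 tested ADAM members, with bars for the SE from limma, split by whether the zinc-binding motif was found. The 4 members called higher (Adam8, Adam19, Adam15 and Adam10) lie above the dashed line, and the called falls, with Adam11 lowest at -0.72 and -0.75, lie below it.

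Adam19, which can shed neuregulins, rose along with Adam15 and Adam10. Adam19 read 130.0, 126 and 112 CPM in injured IPA libraries, against 76.3, 70.9 and 73.3 CPM in uninjured IPA libraries. Under vehicle, Adam19 read 132, 122 and 135 CPM in injured libraries, against 77.3, 76.6 and 75.8 CPM in uninjured libraries. Adam19 changed by 0.75 ± 0.06 under vehicle and 0.73 ± 0.06 under IPA on the log2 scale (limma adjusted p = 1.76e-07 and 2.64e-07), with no overlap. Adam15, an ADAM that also binds integrins, averaged 121 ± 11.2 CPM in injured IPA libraries, against 85.4 ± 1.71 CPM in uninjured IPA libraries (SD, n = 3 each). Under vehicle, Adam15 averaged 103 ± 16.5 CPM in injured and 73.9 ± 6.08 CPM in uninjured libraries. It rose by 0.46 and 0.49 on the log2 scale under vehicle and IPA. Adam10, the main sheddase of Notch receptors and of many neuronal adhesion proteins, showed the smallest rise. Adam10 read 103, 109 and 116 CPM in injured IPA libraries, against 91.1, 89.4 and 88.5 CPM in uninjured IPA libraries. Under vehicle, Adam10 read 128, 110.5 and 110.3 CPM in injured libraries, against 101, 107 and 99.1 CPM in uninjured libraries. The groups did not overlap, and the log2 change was 0.18 ± 0.06 with vehicle and 0.28 ± 0.06 with IPA (limma adjusted p = 0.0278 and 0.00207). The vehicle call was lost without injured vehicle replicate 1 (log2 change 0.11, limma adjusted p = 0.0944), uninjured vehicle replicate 1 (0.17, adjusted p = 0.0801) or uninjured vehicle replicate 3 (0.15, adjusted p = 0.0840), and also with no filter (0.0547) or only the groups compared (0.0691), within a range over all alternatives of 0.0116 to 0.0944 in adjusted p. Adam17, the sheddase of tumour necrosis factor, did not pass, with intervals of -0.001 to 0.23 under vehicle and -0.14 to 0.09 under IPA. Nor did Adam9, with intervals of -0.20 to 0.05 and -0.11 to 0.14.

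The ADAMs with neuronal binding roles fell together. Adam11 read 205, 195 and 168 CPM in injured IPA libraries, against 309, 327 and 316 CPM in uninjured IPA libraries. Under vehicle, Adam11 read 146, 178 and 189.9 CPM in injured libraries, against 274, 280.2 and 286 CPM in uninjured libraries. Adam11, a neuronal ADAM without protease activity (ENSMUSG00000020926, chromosome 11, 102761439 to 102780262, plus strand), changed by -0.72 ± 0.09 with vehicle and -0.75 ± 0.09 with IPA (limma adjusted p = 1.32e-05 and 9.86e-06), the largest fitted fall of any called member. By the ratio of group means under vehicle, the low gene Adam7 fell further, at 0.575 against 0.612 for Adam11. Adam23 read 333, 332 and 331 CPM in injured IPA libraries, against 444, 431 and 463 CPM in uninjured IPA libraries. Under vehicle, Adam23 read 378, 324 and 358 CPM in injured libraries, against 507, 508 and 468 CPM in uninjured libraries. Adam23 changed by -0.48 ± 0.06 and -0.42 ± 0.06 under vehicle and IPA (limma adjusted p = 8.36e-06 and 3.43e-05). Adam22 averaged 159.8 ± 1.93 CPM in injured IPA and 192 ± 7.62 CPM in uninjured IPA libraries, and 173 ± 20.4 CPM in injured vehicle and 209 ± 8.03 CPM in uninjured vehicle libraries (SD, n = 3 each). On the log2 scale it changed by -0.27 under both gavages, and none of the 3 genes had overlapping values. Adam5, known from mouse testis, was lower too at low level, 0.688 and 0.804 CPM in injured IPA and vehicle groups against 1.09 and 1.17 CPM in uninjured IPA and vehicle groups. Of the 12 sensory neuron markers, 1 was higher and 9 lower under vehicle and 1 higher and 8 lower under IPA, with medians of -0.33 and -0.31. Of all genes, 23.6% were higher and 24.4% lower under vehicle, and 21.2% higher and 22.5% lower under IPA. The summed level of these markers was 13122 to 13768 CPM in injured IPA libraries, against 14233 to 14379 CPM in uninjured IPA libraries. Under vehicle, the sum was 12469 to 13417 CPM in injured libraries, against 13444 to 14397 CPM in uninjured libraries. The part of neuron number or of all neuronal RNA in the falls of Adam11, Adam22 and Adam23 was not tested.

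**Figure D3:**
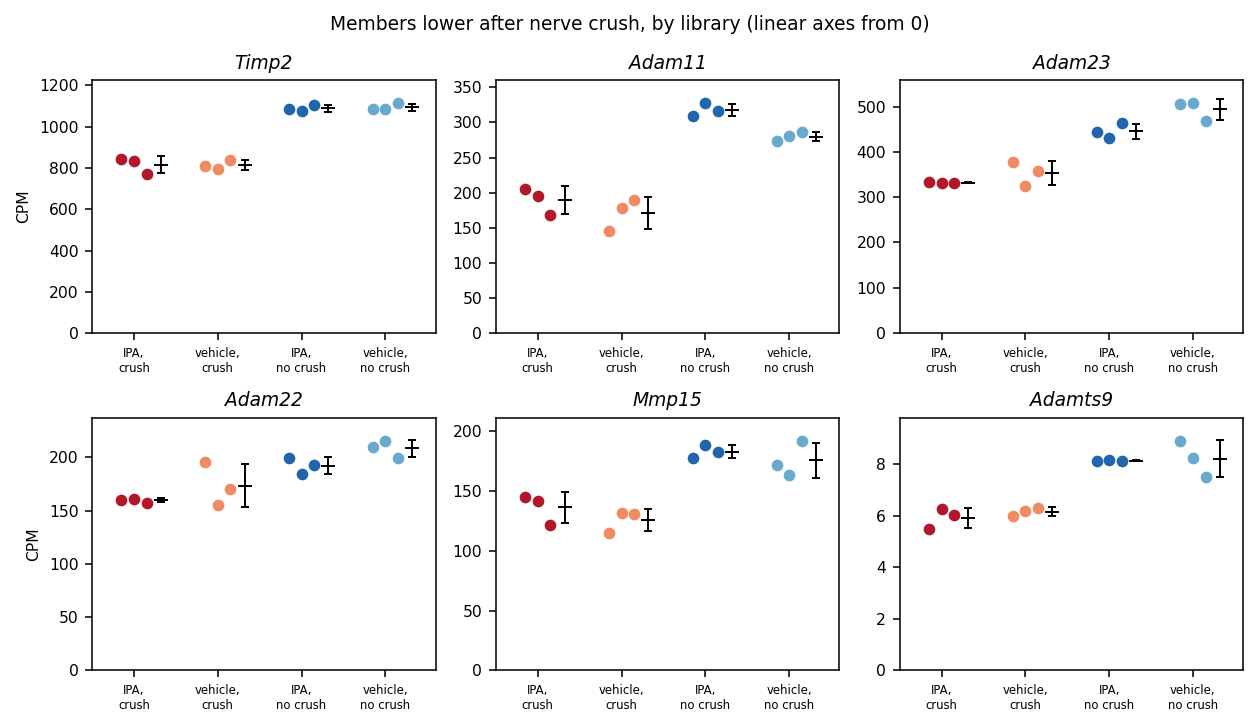
CPM by library (points) with mean and SD (bars) of 6 members that fell after crush, on linear axes from 0, with injured IPA, injured vehicle, uninjured IPA and uninjured vehicle libraries in that order. In each panel the injured libraries of a gavage lie below its uninjured ones, as for Timp2 at 769 to 846 CPM in injured and 1074 to 1114 CPM in uninjured libraries.

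LGI proteins and their partners, listed because ADAM22 and ADAM23 hold them at the axon and synapse, changed in both directions. Of 12 genes tested, 8 were lower under both gavages (24.4% and 22.5% of all genes were), and 2 were higher under vehicle and 1 under IPA (23.6% and 21.2% of all genes were). Their median log2 changes were -0.53 and -0.51, beside which 9 and 8 of the 12 sensory neuron markers were lower too. The part of neuronal RNA as a whole was not tested. Lgi3, a secreted ligand of ADAM22, averaged 86.8 ± 5.35 CPM in injured IPA and 196 ± 4.44 CPM in uninjured IPA libraries, and 80.8 ± 7.195 CPM in injured vehicle and 177 ± 6.63 CPM in uninjured vehicle libraries. That was a log2 change of -1.13 ± 0.06 with vehicle and -1.17 ± 0.06 with IPA (limma adjusted p = 6.43e-09 and 5.10e-09). Cntnap2, the adhesion protein Caspr2, changed by -0.73 ± 0.07 and -0.69 ± 0.07. The potassium channel subunits Kcna1 (-0.56 and -0.56) and Kcnab2 (-0.57 and -0.54) and the scaffold protein Dlg4, or PSD-95 (-0.49 and -0.48), were lower in both comparisons, each value a log2 change under vehicle and under IPA.

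Membrane proteins that ADAMs and MMPs are known to shed went both ways. Of 29 tested, 12 were higher and 6 lower under vehicle, and 13 higher and 5 lower under IPA, with medians of 0.08 and 0.09. Higher and lower calls made up 23.6% and 24.4% of all genes under vehicle and 21.2% and 22.5% under IPA. Csf1, a macrophage growth factor made by injured sensory neurons in mice, averaged 129 ± 6.31 CPM in injured IPA and 16.9 ± 1.39 CPM in uninjured IPA libraries. Under vehicle, Csf1 averaged 138 ± 4.41 CPM in injured and 16.7 ± 0.848 CPM in uninjured libraries. It changed in log2 units by 3.01 ± 0.06 with vehicle and 2.90 ± 0.06 with IPA (limma adjusted p = 3.39e-13 and 6.08e-13). Sdc1, the proteoglycan syndecan-1, averaged 175 ± 11.5 CPM in injured IPA and 26.5 ± 1.95 CPM in uninjured IPA libraries, and rose by 2.78 on the log2 scale under vehicle. Chl1, a neural adhesion protein shed by ADAM8, rose by 1.77 under vehicle and 1.79 under IPA. Tnfrsf1b, a receptor of tumour necrosis factor, rose by 1.54 and 1.40, and Cd44, the hyaluronan receptor, by 0.85 and 0.83.

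The tested ADAMTS genes changed in both directions. Under vehicle, 5 of 16 were higher and 6 lower, and under IPA 5 were higher and 4 lower. Over all genes, 23.6% were higher and 24.4% lower under vehicle, and 21.2% higher and 22.5% lower under IPA. Adamts1, an aggrecanase that also cuts versican, rose most. Adamts1 read 28.1, 28.7 and 26.4 CPM in injured IPA libraries, against 14.7, 14.7 and 13.3 CPM in uninjured IPA libraries. Under vehicle, Adamts1 read 30.1, 32.9 and 30.6 CPM in injured libraries, against 15.8, 16.6 and 14.9 CPM in uninjured libraries. No injured value fell below 26 CPM and no uninjured value exceeded 17 CPM. Adamts1 changed by 0.97 ± 0.06 with vehicle and 0.94 ± 0.06 with IPA (limma adjusted p = 3.52e-08 and 5.54e-08). Adamts5, an aggrecanase that also lies on chromosome 16, averaged 32.8 ± 1.93 CPM in injured IPA and 34.3 ± 3.02 CPM in uninjured IPA libraries, and 31.7 ± 1.68 CPM in injured vehicle and 37.4 ± 1.05 CPM in uninjured vehicle libraries (SD, n = 3 each). It was called lower under vehicle, at a log2 change of -0.23 ± 0.07, a call lost without injured vehicle replicate 3 (-0.20, limma adjusted p = 0.0537; range over all alternatives 0.00263 to 0.0537). Under IPA its interval was -0.21 to 0.09, and the difference between the gavages was 0.17 ± 0.10 (limma adjusted p = 1.00).

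Of the other aggrecanases, Adamts4 and Adamts8 rose, Adamts15 and Adamts9 fell, and Adamts20 did not pass. Adamts4 averaged 2.12 CPM in injured IPA and 1.46 CPM in uninjured IPA libraries, and 2.29 CPM in injured vehicle and 1.39 CPM in uninjured vehicle libraries. Its log2 change was 0.56 ± 0.13 with vehicle and 0.42 ± 0.13 with IPA (limma adjusted p = 0.00273 and 0.0186), and the IPA call was lost without injured IPA replicate 1 (0.36, adjusted p = 0.0721) or 2 (0.38, adjusted p = 0.0647) or uninjured IPA replicate 2 (0.40, adjusted p = 0.0516) or 3 (0.33, adjusted p = 0.0887), and with no filter (0.0637), with a range over all alternatives of 0.0104 to 0.0887. Adamts8 read 10.6, 12.1 and 12.1 CPM in injured IPA libraries, against 8.24, 7.26 and 7.003 CPM in uninjured IPA libraries. Under vehicle, Adamts8 read 9.59, 8.93 and 8.99 CPM in injured libraries, against 6.84, 7.87 and 8.01 CPM in uninjured libraries. Adamts8, known to act against the growth of blood vessels, rose by 0.26 under vehicle and 0.60 under IPA, and the vehicle call was lost without injured vehicle replicate 1 (0.23, limma adjusted p = 0.0521) or uninjured vehicle replicate 1 (0.20, adjusted p = 0.104; range over all alternatives 0.0114 to 0.104). Adamts9 averaged 5.93 and 6.17 CPM in injured IPA and vehicle groups, against 8.13 and 8.22 CPM in uninjured IPA and vehicle groups. Adamts15 averaged 17.1 and 17.02 CPM in the injured IPA and vehicle groups, against 20.7 and 20.5 CPM in the uninjured IPA and vehicle groups. Neither gene had overlapping values, and the log2 changes under vehicle and IPA were -0.38 and -0.43 for Adamts9 and -0.26 and -0.27 for Adamts15.

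All 3 procollagen N-proteinases were called, in both directions, where 48.0% of all genes were called under vehicle and 43.6% under IPA. Adamts2, the main enzyme for type I procollagen, averaged 13.1 ± 0.431 CPM in injured IPA and 17.6 ± 0.607 CPM in uninjured IPA libraries, and 13.9 ± 0.845 CPM in injured vehicle and 17.3 ± 1.24 CPM in uninjured vehicle libraries (SD, n = 3 each). On the log2 scale it changed by -0.30 under vehicle and -0.41 under IPA. Adamts3 averaged 6.62 CPM in injured IPA and 9.54 CPM in uninjured IPA libraries, and 7.71 CPM in injured vehicle and 9.47 CPM in uninjured vehicle libraries. It had log2 changes of -0.28 ± 0.09 under vehicle, where values overlapped, and -0.50 ± 0.09 under IPA, where they did not (limma adjusted p = 0.0217 and 0.000639). Its vehicle call was lost without injured vehicle replicate 2 (-0.23, limma adjusted p = 0.0908) or 3 (-0.25, adjusted p = 0.0763) or uninjured vehicle replicate 1 (-0.25, adjusted p = 0.0776) or 2 (-0.26, adjusted p = 0.0739), and with only the groups compared (0.0517), with a range over all alternatives of 0.00293 to 0.0908. Adamts14 went up, to 2.64 CPM in injured IPA against 1.74 CPM in uninjured IPA libraries, and to 2.53 CPM in injured vehicle against 1.54 CPM in uninjured vehicle libraries. Its log2 changes were 0.55 ± 0.13 and 0.49 ± 0.13 under vehicle and IPA (limma adjusted p = 0.00339 and 0.00821). Adamts16 averaged 1.12 and 1.04 CPM in injured IPA and vehicle groups against 0.643 and 0.576 CPM in uninjured IPA and vehicle groups, a log2 change of 0.50 under both gavages; the vehicle values overlapped. That call was lost under vehicle without injured vehicle replicate 2 (0.37, limma adjusted p = 0.0833) or 3 (0.46, adjusted p = 0.0572) or uninjured vehicle replicate 1 (0.48, adjusted p = 0.05004) or 3 (0.40, adjusted p = 0.0686; range over all alternatives 0.00148 to 0.0833). Under IPA it was lost without injured IPA replicate 3 (0.41, limma adjusted p = 0.0741) or uninjured IPA replicate 1 (0.48, adjusted p = 0.0577) or 2 (0.47, adjusted p = 0.0581; range over all alternatives 0.00542 to 0.0741).

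**Figure D4:**
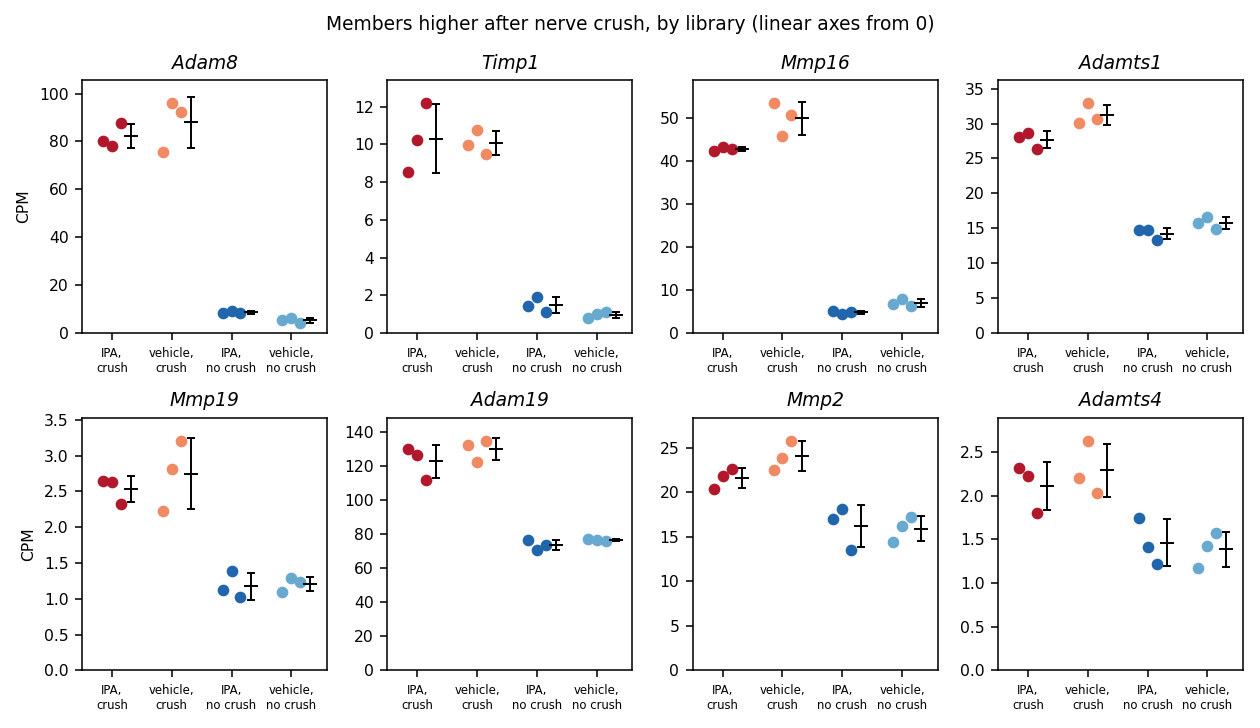
CPM by library (points) with mean and SD (bars) of 8 members that rose after crush, on linear axes from 0, with injured IPA, injured vehicle, uninjured IPA and uninjured vehicle libraries in that order. Adam8 lies at 75.6 to 96.0 CPM in injured and 4.14 to 9.33 CPM in uninjured libraries, while Mmp2 and Adamts4 show smaller differences.

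Matrix proteins that these enzymes cut, and the link proteins that hold lecticans to hyaluronan, changed in both directions. Of 20 tested, 6 were higher and 7 lower under vehicle, and 1 higher and 8 lower under IPA, where all genes had 23.6% higher and 24.4% lower under vehicle and 21.2% and 22.5% under IPA. Hapln4, a link protein of perineuronal matrix, averaged 40.1 ± 3.29 CPM in injured IPA and 85.2 ± 4.52 CPM in uninjured IPA libraries, and 40.4 ± 4.09 CPM in injured vehicle and 79.4 ± 3.42 CPM in uninjured vehicle libraries. It changed in log2 units by -0.97 under vehicle and -1.08 under IPA. The link proteins Hapln1 (-1.19 and -1.04) and Hapln3 (-0.81 and -0.75) were lower as well. Fn1, fibronectin, rose by 0.66 ± 0.11 under vehicle (limma adjusted p = 0.000237) and had a change of -0.07 ± 0.11 under IPA (adjusted p = 0.642); the difference between the gavages did not pass (adjusted p = 1.00).

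The inhibitors moved in opposite directions. Timp1, a secreted inhibitor known to be induced in wounds and by cytokines (ENSMUSG00000001131, chromosome X, 20870166 to 20874735, plus strand), rose. Timp1 read 8.53, 10.2 and 12.2 CPM in injured IPA libraries, against 1.42, 1.93 and 1.12 CPM in uninjured IPA libraries. Under vehicle, Timp1 read 9.97, 10.8 and 9.47 CPM in injured libraries, against 0.809, 1.01 and 1.11 CPM in uninjured libraries. Injured libraries lay between 8.53 and 12.2 CPM, and no uninjured library reached 2 CPM. The log2 change was 2.85 ± 0.15 under vehicle (limma adjusted p = 2.97e-09) and 2.45 ± 0.15 under IPA (limma adjusted p = 1.64e-08). Group means differed by 10.3 and 6.91 times, more than the fitted folds, because the 0.5 added before the log shrinks the change of low genes. Timp1 lies within Syn1 on the opposite strand with no shared exon, and Syn1, a neuronal synapsin, read 498 to 577 CPM in injured and 512 to 562 CPM in uninjured libraries.

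The RefSeq window of Timp1 (chrX:20869916-20870215, plus strand, GRCm38.p6) is shown because it was the one member window with the letters TGAGTAA, searched on both strands after the windows had been seen and present in 2.68% of all windows. The full TGANTCA is not in it, nor is TGACGTCA, which 1.79% of all windows hold. Capitals mark the match, which is a description of letters and not a site.
Timp1: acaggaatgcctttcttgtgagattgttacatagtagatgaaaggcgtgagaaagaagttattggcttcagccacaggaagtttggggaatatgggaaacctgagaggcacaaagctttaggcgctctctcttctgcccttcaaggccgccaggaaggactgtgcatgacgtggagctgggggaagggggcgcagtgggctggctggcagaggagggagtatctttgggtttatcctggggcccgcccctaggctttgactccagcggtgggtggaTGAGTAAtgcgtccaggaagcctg

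Timp2, which blocks MMPs and also takes part in the activation of Mmp2 by Mmp14, fell in every injured library. Timp2 read 846, 833 and 769 CPM in injured IPA libraries, against 1086, 1074 and 1107 CPM in uninjured IPA libraries. Under vehicle, Timp2 read 807, 793 and 839.5 CPM in injured libraries, against 1084, 1087 and 1114 CPM in uninjured libraries. Its log2 change was -0.43 ± 0.05 with vehicle and -0.42 ± 0.05 with IPA (limma adjusted p = 4.07e-06 and 6.00e-06). Timp3, the matrix-bound inhibitor that also blocks ADAMs, did not pass, with intervals of -0.18 to 0.06 under vehicle and -0.12 to 0.12 under IPA. Timp4 stayed near the filter, with group means of 0.488 and 0.666 CPM in injured IPA and vehicle libraries and 0.585 and 0.4798 CPM in uninjured IPA and vehicle libraries. Timp3 and Timp4 share exon positions with Syn3 and Syn2 on the opposite strand, and Syn2 was far above Timp4, at 149 to 156 CPM in injured and 204 to 214 CPM in uninjured libraries.

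Per kilobase of transcript, Timp1 made up 4.58% and 4.46% of the summed level of the 4 inhibitors in injured IPA and injured vehicle groups, against 0.530% and 0.342% in uninjured IPA and uninjured vehicle groups. Timp2 made up 86.3% and 85.7% in injured IPA and vehicle groups, against 92.2% and 91.5% in uninjured IPA and vehicle groups. The summed CPM of the 4 inhibitors was 888 to 966 in injured libraries, against 1186 to 1240 in uninjured libraries, so it was lower after injury despite the rise of Timp1. Summed ADAM levels were 1214 to 1305 CPM in injured and 1330 to 1409 CPM in uninjured libraries. Summed Mmp levels overlapped, at 372 to 424 CPM in injured and 348 to 394 CPM in uninjured libraries, as did summed Adamts levels, at 143 to 154 CPM in injured and 141 to 149 CPM in uninjured libraries.

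Genes outside the family that set its activity went both ways. Of 20 tested, 10 were higher and 3 lower under vehicle, and 8 higher and 3 lower under IPA, with median log2 changes of 0.16 and 0.09. Of all genes, 23.6% were higher and 24.4% lower under vehicle, and 21.2% higher and 22.5% lower under IPA. Among them are parts of the plasmin system, which activates MMP precursors. The urokinase receptor Plaur rose by 2.48 under vehicle and 2.43 under IPA, urokinase itself (Plau) by 1.02 and 0.83, and tissue plasminogen activator (Plat) by 0.81 and 0.59 on the log2 scale. Tspan17, a tetraspanin that carries ADAM10 to the surface, rose by 0.71 and 0.64. Among related zinc proteases and ADAMTS-like proteins, 3 of 11 were higher and 4 lower under both gavages. Pappa2 (1.10 and 1.08) and Pappa (0.91 and 0.89), which cut insulin-like growth factor binding proteins, and the procollagen C-proteinase Bmp1 (1.07 and 0.92) were higher. Tll1 (-0.85 and -0.74) and Papln (-0.74 and -0.47) were lower, each pair a log2 change under vehicle and IPA.

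For IPA without injury, no member passed with limma. With 0 of 49 called, the share was that of all genes (0.0%), the smallest adjusted p was 0.400, and edgeR's quasi-likelihood test on the recovered reads called 0 members as well, with 12 at an unadjusted p under 0.05. At an unadjusted p under 0.05 limma listed 12 members (24.5%, against 12.2% of all genes). Values of uninjured IPA and uninjured vehicle libraries did not overlap for 42.9% of members, against 25.2% of all genes. Both member shares include Adam7 and Adam21. These were kept through uninjured vehicle libraries, where they were high, and so give no support. DESeq2 called 2 members of the 3 genes it called in all (0.0192% of genes), Adam8 as higher and Mmp16 as lower.

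Mmp16 read 5.12, 4.47 and 4.797 CPM in uninjured IPA libraries, against 6.82, 7.93 and 6.19 CPM in uninjured vehicle libraries. Adam8 read 8.16, 9.33 and 8.48 CPM in uninjured IPA libraries, against 5.45, 6.16 and 4.14 CPM in uninjured vehicle libraries. Values of the 2 groups overlapped for neither gene, and under IPA Mmp16 was lower and Adam8 higher. Mmp16 had a log2 change of -0.49 ± 0.08 (limma adjusted p = 0.400; DESeq2 adjusted p = 0.000394), and Adam8 one of 0.69 ± 0.12 (limma adjusted p = 0.400; DESeq2 adjusted p = 0.000329). Summed macrophage markers were 40.7 to 60.0 CPM in uninjured IPA and 42.6 to 53.6 CPM in uninjured vehicle libraries, and summed neutrophil markers 22.9 to 43.6 CPM in uninjured IPA and 18.1 to 63.8 CPM in uninjured vehicle libraries. Their part in the Adam8 difference was not tested. Timp3 (-0.17 ± 0.05), Adam10 (-0.19 ± 0.06) and Adam21 (-0.27 ± 0.09), an ADAM known from testis, had the next smallest p, each with limma adjusted p = 0.408. Adam21 read 0.347, 0.408 and 0.370 CPM in uninjured IPA libraries, against 0.540, 0.550 and 0.579 CPM in uninjured vehicle libraries. Elsewhere only injured vehicle replicate 2 reached 0.5 CPM (0.545). Adam21 was thus kept through uninjured vehicle libraries, and its lower value under IPA follows in part from that filter. Over all alternatives the adjusted p was 0.000329 to 0.750 for Adam8 and 0.000394 to 0.816 for Mmp16. Timp1 read 1.42, 1.93 and 1.12 CPM in uninjured IPA libraries, against 0.809, 1.01 and 1.11 CPM in uninjured vehicle libraries, which did not overlap (0.42 ± 0.15, limma adjusted p = 0.408). Timp2 (-0.01) and Timp4 (0.15) had overlapping values. The 95% interval lay within 1.5-fold either way for 40 of the 49 members, a count not made over all genes.

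For IPA after injury, no member passed with limma (0 of 49, 0.0% of all genes, smallest adjusted p = 0.578), edgeR or DESeq2, which listed 5 and 4 members at an unadjusted p under 0.05. At an unadjusted p under 0.05 limma listed 7 members (14.3%, against 8.06% of all genes), and injured IPA and injured vehicle values did not overlap for 10.2% of members, against 11.4% of all genes. Adamts8 had the smallest p. It read 10.6, 12.1 and 12.1 CPM in injured IPA libraries, against 9.59, 8.93 and 8.99 CPM in injured vehicle libraries, which did not overlap, a log2 change of 0.32 ± 0.09 (limma adjusted p = 0.578). Adamts1 read 28.1, 28.7 and 26.4 CPM in injured IPA libraries, against 30.1, 32.9 and 30.6 CPM in injured vehicle libraries, also without overlap (-0.17 ± 0.06, limma adjusted p = 0.581). Mmp16 read 42.3, 43.1 and 42.7 CPM in injured IPA libraries, against 53.3, 45.8 and 50.5 CPM in injured vehicle libraries (-0.22 ± 0.08, limma adjusted p = 0.589), again without overlap and lower under IPA. Adam15 (0.24 ± 0.10) and Adamts12 (-0.32 ± 0.14), a secreted protease of cartilage matrix, had overlapping values. Without injured vehicle replicate 1 the Adam15 value was 0.10 (limma adjusted p = 0.921; range over all alternatives 0.261 to 0.955). Adam8 overlapped too, with a 95% interval of -0.35 to 0.16 on the log2 scale. For 45 of the 49 members the interval lay within 1.5-fold, which was not counted over all genes.

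**Figure D5:**
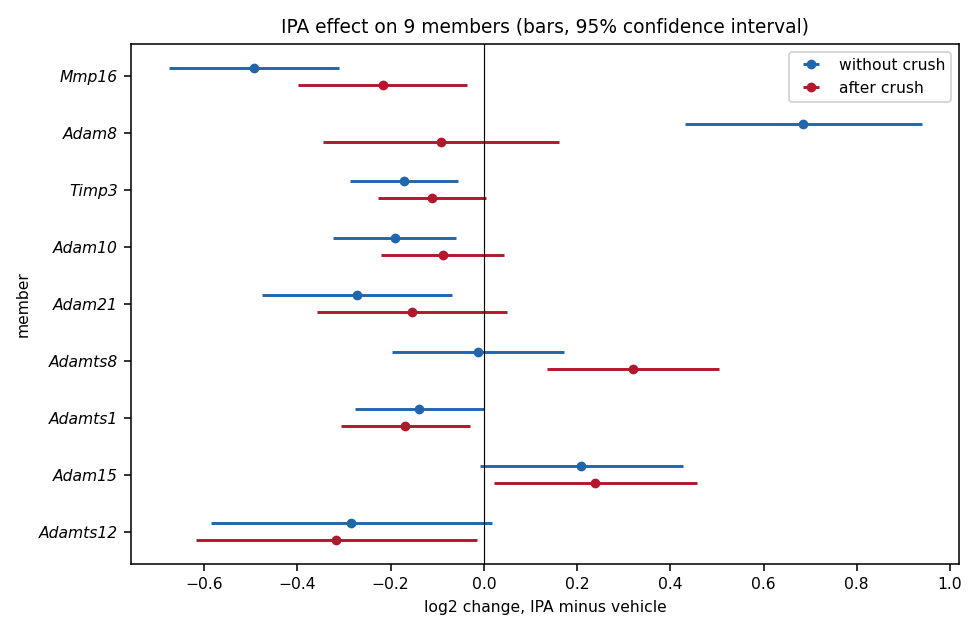
Log2 change under IPA (IPA minus vehicle, x axis) of the 9 members with the smallest p in either IPA comparison, without crush and after crush, with bars for the 95% confidence interval from limma. Adam8 lies at 0.69 without crush and -0.09 after crush, Mmp16 at -0.49 and -0.22, and none passed after adjustment over all genes with limma.

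The difference between the 2 injury effects, taken as injury under IPA minus injury under vehicle, was called for no member by limma (0 of 49, 0.0% of all genes) or edgeR. At an unadjusted p under 0.05 limma listed 3 members (6.12%, against 2.1% of all genes), and these were Adam8, Adamts8 and Mmp16. Adam8 had a difference of -0.78 ± 0.17 (limma adjusted p = 1.00), and DESeq2 called it, as 1 of 3 genes (0.0192%), at adjusted p = 0.0153, the lowest over all alternatives (0.0153 to 1.00). Adamts8 had a difference of 0.33 ± 0.12 and Mmp16 of 0.28 ± 0.12. Timp1 (-0.40 ± 0.21) and Timp4 (-0.40 ± 0.21) followed, at -0.24 for Timp1 without uninjured IPA replicate 2 and -0.25 for Timp4 without uninjured vehicle replicate 1. The interval of the difference lay within 1.5-fold for 38 of the 49 members, again with no count over all genes.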

How the data were processed

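RNA was sequenced from sciatic DRG of 12 pools of 2 mice, 3 pools in each of 4 groups, which the labels call biological triplicates. Per the labels' protocols, RNA had an integrity number above 8.0, and poly(A) RNA went into directional libraries read as 75 base pairs from both ends. The submitters' processing notes name the genome build mm10, STAR 2.7.0, FastQC 0.10.1, edgeR 3.24.3, limma 3.38.3 and R 3.5.0, with no role for each. How reads were counted, with or without regard to strand, and with which annotation, is not given in the sources used here. Although the deposited table is named FPKM, its values behave as CPM, reads times 1 factor per library, with no dependence on length. Within each library all were whole multiples of 1 step (tolerance 1e-06), and the reads recovered from these steps gave the depths. The total used for the scaling is not known, and it was not the assigned reads alone. Levels per kilobase were computed here with the longest annotated transcript.

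Values were tested as log2(value + 0.5) with limma 3.58.1 (trend, R 4.3.3) over all 12 libraries, 4 group means and 5 comparisons, with Benjamini-Hochberg adjustment over 15603 genes at 0.05. This shrinks the change of low genes. The script was tested on simulated data. Alternatives were other added values and filters, other scalings, a block for the replicate number, edgeR 4.0.16 and DESeq2 1.42.0 on recovered reads, fits to the compared groups alone, and each library left out. Group overlap was counted per library, and SDs are over 3 libraries.

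The text names the 12 largest called rises and falls per injury comparison, every TIMP, the 5 smallest p per IPA comparison, the 12 highest members per kilobase, up to 5 genes of each partner list with the smallest p in injury under vehicle, and the 3 highest members below the filter. Others are named to complete a role group. A few genes that this rule or an exon overlap would name are not reported here. Members and lists were chosen with earlier results of these data known. Promoter windows are RefSeq, GRCm38.p6. Motifs were searched on both strands.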

Additional observations from a re-analysis of the deposited data

How the results depend on the processing

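Over 1484 single-gene values under alternatives (68 results), 1438 kept their direction and their side of the threshold, 43 lost the call (11 results), 3 gained one and 0 reversed. DESeq2 called 1 member higher (Adam8) and 1 lower (Mmp16) for IPA without injury, and 1 lower (Adam8) for the difference between injury effects, where limma called 0; the cause was not tested. Leaving out each library gave 11 to 14 higher and 10 to 14 lower members for injury under vehicle, 12 to 14 higher and 10 to 15 lower for injury under IPA, and 0 in each direction for both IPA comparisons and for the difference. Replicate numbers did not pair the samples: same-numbered libraries deviated together with correlations of -0.252 to 0.205. With the replicate block, 14 were higher and 14 lower under vehicle, 14 and 12 under IPA, and 0 in the other comparisons. Other scalings moved the median of all genes by less than 0.1 on the log2 scale. Members under about 1 CPM rest on few reads, and with 3 libraries a group small effects of IPA were not resolved.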

Other observations

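Adam18, an ADAM of the testis and below the filter, had 11, 9 and 17 reads in injured IPA libraries, against 2, 4 and 3 reads in uninjured IPA libraries. Under vehicle it had 5, 11 and 15 reads in injured libraries, against 1, 7 and 2 reads in uninjured libraries. It was singled out after its values were seen and was not tested in the filtered fit. Adamts18, the most abundant of the members below the filter, summed to 42 and 41 reads in the injured IPA and injured vehicle groups, against 75 and 88 reads in the uninjured IPA and uninjured vehicle groups.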
